A study of Mus musculus with 6 samples.

Results

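The genes described here encode the enzymes that build purine nucleotides from small precursors, together with the enzymes that supply the starting sugar and that carry IMP on to GMP. They are *Prps1*, *Ppat*, *Gart*, *Pfas*, *Paics*, *Adsl*, *Atic*, *Impdh1*, *Impdh2* and *Gmps*, and they were chosen by name in the gene column of the count table. All 10 were found, each as a locus of its own, among 51499 loci, and all 10 were among the 14499 loci that held enough reads to be tested. RNA-Seq was performed on wild-type mouse embryonic fibroblasts (WT MEFs) 72 h after transfection with a control siRNA (Scr) or with an siRNA against *Yme1l*, the gene of a protease of the mitochondrial inner membrane, and there were 3 cultures in each group. The sample labels call the cells 3T3 immortalised, whereas the study's methods describe SV40 large T antigen and a WT clone with *Yme1l* loxP/loxP alleles. Both groups share this line, so the values describe 1 immortalised line, and the sources used here do not say for this experiment whether a treatment held 1 siRNA or a pool. The question addressed here is how the transcripts of purine synthesis differed between control cells and cells depleted of *Yme1l*.

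In this pathway, the base of the nucleotide is assembled step by step on a ribose phosphate. PRPP synthetase provides the activated ribose (phosphoribosyl pyrophosphate, PRPP), PPAT makes the committed first step and is inhibited by the purine nucleotides that the route ends in, and GART, PFAS, PAICS, ADSL and ATIC complete the ring to give IMP (inosine monophosphate), the first complete purine nucleotide. From IMP, the IMP dehydrogenases and GMP synthetase lead to GMP, and a separate branch that uses ADSL again leads to AMP. Proliferating cells are known to depend on this route for RNA and DNA synthesis, and its ring carbons come in part from formate made by folate enzymes, some of which sit in mitochondria.

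After *Yme1l* knockdown, 9 of the 10 genes were expressed at a higher level and 1, *Paics*, at a lower level. The background was broad, since 28.4% of the loci tested were called higher and 29.6% lower, 58.0% in all (edgeR's quasi-likelihood test, Benjamini-Hochberg adjusted p under 0.05). In all 10 genes, the 3 Scr libraries did not overlap with the 3 Yme1l siRNA libraries, which was also the case for 65.4% of the loci tested. *Ppat* was the only gene of the 10 that rose at least 2-fold, a call made for 8.18% of the loci. The median log2 fold change of the 10 genes was 0.53, against 0.01 for all loci tested. These genes were selected with earlier results of these data known, and the counts are therefore a description of the group.

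**Figure D1:**
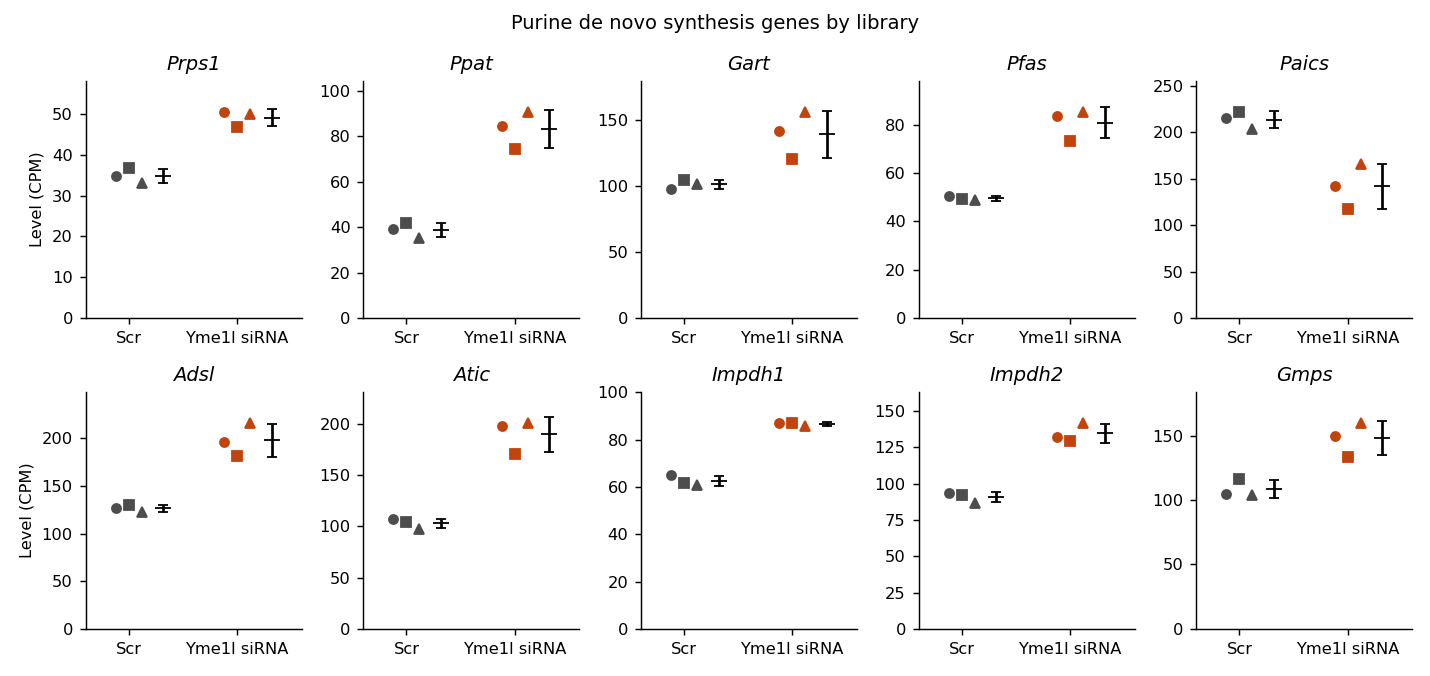
Level of each purine synthesis gene in CPM (counts relative to the scaled library size) on linear axes that start at 0, with circles, squares and triangles for cultures 1, 2 and 3 of each group and bars for the mean ± SD (n = 3). The Yme1l siRNA points lie above the Scr points in 9 panels and below them in the panel of *Paics*.

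The libraries held between 37260605 and 45205207 counts. The targeted gene *Yme1l1* (chromosome 2, 23156369 to 23199260, GRCm38) was measured at 170.5, 171.3 and 170.6 CPM for Scr and at 31.6, 23.4 and 45.0 CPM for Yme1l siRNA, a log2 fold change of -2.36 (standard error, SE, 0.20, edgeR adjusted p = 3.87e-05). Of 10 fibroblast markers, 9 were tested, 8 were lower after knockdown and *Vim* was not called, and their summed level was 34143 to 41356 CPM in Scr and 18377 to 22786 CPM in Yme1l siRNA libraries. *Thy1* was at 0 or 1 count in every library. The macrophage genes *Ptprc*, *Adgre1* and *Itgam* were at or near 0 in every library, and *Lyz2* was low (means 1.34 CPM in Scr and 1.05 CPM in Yme1l siRNA). *Csf1r* (means 123.0 and 204.9 CPM) and *Cd68* (means 46.8 and 42.8 CPM) were present in both groups. *Csf1r* shares 873 exon bases with *Hmgxb3* on the other strand. The summed level of the 6 macrophage markers, of which 3 were tested and only *Csf1r* was called higher, was 162.8 to 179.6 CPM in Scr and 242.3 to 255.4 CPM in Yme1l siRNA libraries. The 6 endothelial markers, of which 3 were tested and *Kdr* and *Tek* were called higher, summed to 3.79 to 4.08 CPM in Scr and 5.68 to 7.85 CPM in Yme1l siRNA libraries. None of the 6 epithelial markers was tested, and they summed to 0.0924 to 0.194 CPM in Scr and 0.214 to 0.529 CPM in Yme1l siRNA libraries. In these bulk samples, fewer cells of a kind and less RNA per cell cannot be told apart, and the part of these shifts in the purine gene levels was not tested.

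Short stretches of the start regions are shown first, because *Myc* is among the genes described further on and its protein binds, with MAX, to the letters CACGTG, known as the E-box. Windows from 250 bases before to 50 bases after the annotated start were taken from RefSeq (GRCm38.p6) and searched on both strands. A window was found for 9 of the 10 genes, and *Pfas* was not matched. The E-box letters were found in 3 of these 9 genes, and 7.2% of all 32851 windows held them. The matches are printed 5′ to 3′ on the plus strand, within 30 bases, with the E-box in capitals.
*Atic*, chr1:71557137-71557166: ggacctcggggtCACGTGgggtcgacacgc
*Paics*, chr5:76951087-76951116: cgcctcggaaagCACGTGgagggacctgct
*Impdh2*, chr9:108560314-108560343: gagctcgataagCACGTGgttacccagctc
The E-box began 7 bases before the RefSeq start of *Atic*, 203 bases before that of *Paics* and 110 bases before that of *Impdh2*. All offsets in this paragraph count from RefSeq starts, whereas the gene positions given further on come from GENCODE and can differ. In GENCODE, *Impdh2* starts at 108560286, so its E-box lies inside the gene. The stretch of *Atic* overlaps its annotated exon, that of *Impdh2* lies in an annotated *Impdh2* exon, and that of *Paics* lies in an exon of *Ppat* on the other strand. Among the 3 genes, *Atic* and *Impdh2* were called higher after knockdown and *Paics* lower, and *Ppat*, whose exon holds the *Paics* stretch, was called higher. Whether the letters relate to the direction was not tested. GGGCGG, the GC box, was present in all 9 genes (35.7% of all windows), and CCAAT in 5 of them (*Atic*, *Paics*, *Impdh2*, *Gart* and *Prps1*, 37.4% of all windows). TGATGNAA, the letters of the amino acid response element, were found in *Prps1* alone, 170 bases before its start (4.0% of all windows). No match in these genes overlapped a match of another motif. These are matches of letters in a window, and binding was not measured.

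*Prps1* (chromosome X, 140456613 to 140476140, plus strand), a PRPP synthetase, supplies the ribose phosphate. Its level was 34.7, 36.6 and 33.2 CPM for Scr and 50.4, 46.7 and 49.9 CPM for Yme1l siRNA. The groups were separate, and each Yme1l siRNA library was above every Scr library. *Prps1* rose by 0.49 on the log2 scale (SE 0.07, 95% interval 0.33 to 0.65, edgeR adjusted p = 0.000431). Its copy *Prps1l3* is 93.2% identical to it over 1478 bases and lies in a locus that joins it with *Mipol1*, and this locus had 1254 to 1613 counts. How reads that match both were assigned is not given in the sources used here. When the counts of both loci were summed, the log2 fold change was 0.29 (edgeR adjusted p = 0.00659).

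*Prps2* encodes the isozyme that makes the same product. It was measured at 52.5, 51.6 and 53.0 CPM in Scr and at 59.9, 51.1 and 63.3 CPM in Yme1l siRNA libraries, and the groups overlapped because Yme1l siRNA replicate 2 was below all Scr libraries. The log2 fold change of 0.15 (SE 0.08, 95% interval -0.04 to 0.34) was not called (edgeR adjusted p = 0.160), although without Yme1l siRNA replicate 2 it was 0.24 and was called (adjusted p = 0.0170). The ratio of *Prps1* to *Prps2* counts does not depend on the scaling of libraries. It was 0.662, 0.710 and 0.626 in Scr and 0.841, 0.913 and 0.789 in Yme1l siRNA libraries, with no overlap. The difference in the mean log2 ratio was 0.35 (SE 0.08, two-sided exact permutation test, p = 0.1), and 0.1 is the smallest p that 3 libraries against 3 allow.

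*Ppat* (chromosome 5, 76913249 to 76951578, minus strand) encodes the amidotransferase of the committed step. The Scr libraries had 39.3, 41.7 and 35.3 CPM and the Yme1l siRNA libraries 84.6, 74.6 and 90.8 CPM. Even the lowest Yme1l siRNA library was well above the highest Scr library. The mean rose from 38.8 ± 3.23 to 83.3 ± 8.18 CPM (SD, n = 3 each), which is 2.15-fold. On the log2 scale this was 1.10 (SE 0.09, 95% interval 0.89 to 1.32, edgeR adjusted p = 3.79e-05), and 7.41% of the loci tested had a larger log2 fold change.

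*Gart* (chromosome 16, 91621186 to 91646952, minus strand) encodes an enzyme with several active sites, one of which takes its carbon from 10-formyltetrahydrofolate. It was measured at 97.8, 104.6 and 101.9 CPM in Scr and at 141.5, 120.8 and 156.3 CPM in Yme1l siRNA libraries. The Yme1l siRNA libraries spread more widely than the Scr libraries, with replicate 2 the closest to the controls, but the groups did not overlap. *Gart* rose by 0.46 (SE 0.10, 95% interval 0.24 to 0.68, edgeR adjusted p = 0.00373). The gene starts 554 bases from *Son*, a splicing factor gene on the other strand, and their exons do not overlap. An antisense gene, *Gm15964*, shares 1014 exon bases with *Gart* but had at most 2 counts. *Son* had a log2 fold change of 0.28 (SE 0.08, edgeR adjusted p = 0.0165), and this call was lost without Scr replicate 2 (0.22, adjusted p = 0.0842) or without Yme1l siRNA replicate 1 (0.24, adjusted p = 0.0755). It shares 103 exon bases with *Donson* on the other strand.

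*Pfas* (chromosome 11, 68985697 to 69008460, minus strand), which encodes a further amidotransferase of the route, was measured at 50.5, 49.2 and 48.8 CPM in Scr and at 83.7, 73.4 and 85.2 CPM in Yme1l siRNA libraries. The Scr libraries lay close together, and all Yme1l siRNA libraries were higher. *Pfas* rose by 0.71 on the log2 scale (SE 0.07, 95% interval 0.53 to 0.88, edgeR adjusted p = 9.98e-05), from a mean of 49.5 ± 0.903 to 80.8 ± 6.43 CPM (SD, n = 3 each).

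*Paics* (chromosome 5, 76951307 to 76967509, plus strand) encodes a bifunctional enzyme of the route, and it was the gene that went the other way. In Scr cultures 9327, 8015 and 8618 reads were counted, in Yme1l siRNA cultures 6322, 5124 and 6982. In CPM these were 215.4, 222.1 and 204.2 against 142.5, 117.9 and 165.7. All Yme1l siRNA libraries were below all Scr libraries, with the lowest value in replicate 2. *Paics* fell by 0.59 on the log2 scale (SE 0.12, 95% interval -0.86 to -0.32, edgeR adjusted p = 0.00266), and 17.6% of the loci tested had a smaller log2 fold change. Leaving out single libraries and using other fits gave values between -0.72 and -0.47, all of them called. Its copy *Gm4797*, 90% identical over 1285 bases, had 0 counts in every library, and *Gm19241*, 91.2% identical over 904 bases, was not analysed here.

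*Paics* and *Ppat* lie head to head. Their annotated starts are 271 bases apart, and 272 bases of their exons overlap on opposite strands. The libraries were stranded, but the sources used here do not say whether the reads were counted by strand. The ratio of *Paics* to *Ppat* counts was 5.48, 5.32 and 5.78 for Scr and 1.69, 1.58 and 1.83 for Yme1l siRNA. The Yme1l siRNA ratios were all below the Scr ratios, with a narrow spread in each group (5.53 ± 0.232 and 1.70 ± 0.123, SD, n = 3 each). The difference in the mean log2 ratio was -1.71 (SE 0.07, two-sided exact permutation test, p = 0.1, the smallest possible). Both genes were already separate between the groups, in opposite directions, so this p was fixed and adds no support to their calls. The summed level of both genes was 254.7, 263.9 and 239.6 CPM in Scr and 227.1, 192.5 and 256.5 CPM in Yme1l siRNA libraries, and here the groups overlapped (252.7 ± 12.3 and 225.3 ± 32.04 CPM, SD, n = 3 each, two-sided exact permutation test, p = 0.3).

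**Figure D2:**
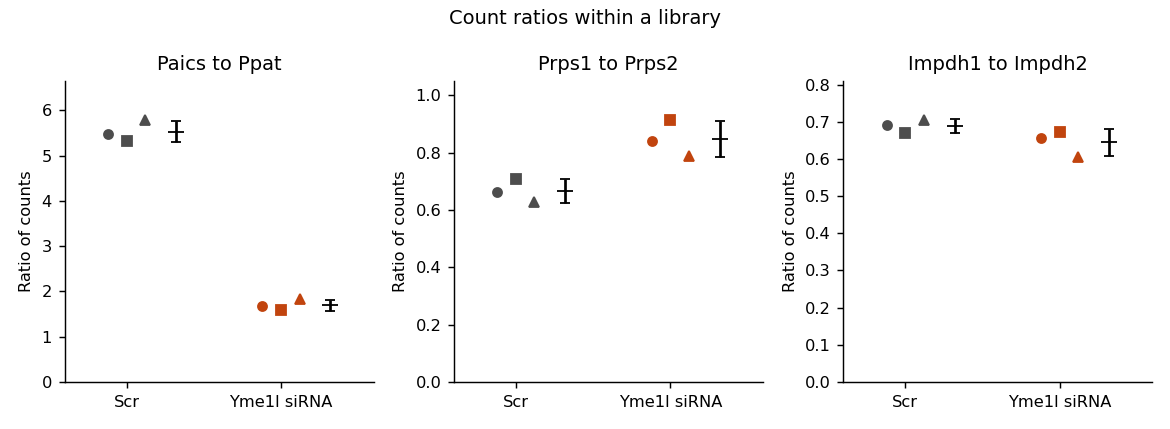
Ratio of counts within each library for *Paics* to *Ppat*, *Prps1* to *Prps2* and *Impdh1* to *Impdh2*, on linear axes that start at 0, with circles, squares and triangles for cultures 1, 2 and 3 and bars for the mean ± SD (n = 3). The ratio of *Paics* to *Ppat* is near 5.53 in Scr and near 1.70 in Yme1l siRNA libraries, *Prps1* to *Prps2* is separate in the other direction, and *Impdh1* to *Impdh2* overlaps.

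*Adsl* (chromosome 15, 80948490 to 80970946, plus strand) encodes the lyase that acts both in the ring assembly and on the branch to AMP. The Scr libraries had 127.1, 130.2 and 122.6 CPM and the Yme1l siRNA libraries 195.8, 181.7 and 216.5 CPM. The groups were well apart, and *Adsl* rose by 0.64 (SE 0.08, 95% interval 0.46 to 0.83, edgeR adjusted p = 0.000235).

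*Atic* (chromosome 1, 71557150 to 71579631, plus strand), which encodes the enzyme that adds the last ring carbon and closes IMP, was measured at 106.6, 104.3 and 97.5 CPM in Scr and at 198.1, 170.1 and 200.9 CPM in Yme1l siRNA libraries. Its rise was the next in size after that of *Ppat*, from 102.8 ± 4.71 to 189.7 ± 17.0 CPM (SD, n = 3 each). The log2 fold change was 0.88 (SE 0.08, 95% interval 0.69 to 1.08, edgeR adjusted p = 5.99e-05). Like GART, ATIC takes its carbon from 10-formyltetrahydrofolate, and the lower bound of *Atic*, 0.69, lay next to the upper bound of *Gart*, 0.68.

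The IMP dehydrogenases, which make the first step towards GMP, both rose. *Impdh1* (chromosome 6, 29200434 to 29216364, minus strand) was measured at 64.9, 61.5 and 61.1 CPM in Scr and at 87.0, 87.2 and 85.9 CPM in Yme1l siRNA libraries. *Impdh2* (chromosome 9, 108560286 to 108565584, plus strand), the isozyme known to be raised in proliferating cells, was measured at 93.7, 92.0 and 86.7 CPM in Scr and at 132.5, 129.5 and 142.0 CPM in Yme1l siRNA libraries. In neither gene did the groups overlap. The log2 fold changes were 0.47 for *Impdh1* (SE 0.06, 95% interval 0.33 to 0.61, edgeR adjusted p = 0.000296) and 0.57 for *Impdh2* (SE 0.07, 95% interval 0.41 to 0.73, adjusted p = 0.000222).

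The balance of the isozymes was measured as the ratio of *Impdh1* to *Impdh2* counts, which was 0.692, 0.669 and 0.704 in Scr and 0.657, 0.673 and 0.605 in Yme1l siRNA libraries. The groups overlapped, with a difference in the mean log2 ratio of -0.10 (SE 0.05, two-sided exact permutation test, p = 0.2). A pseudogene, *Impdh2-ps*, is 99.7% identical to *Impdh2* over 1545 bases and held 1104 to 1307 counts in Scr and 1779 to 1911 counts in Yme1l siRNA libraries. Reads of these loci may have been divided between them, and with their counts summed the log2 fold change was 0.55 (edgeR adjusted p = 0.000217). *Impdh2* also shares 48 exon bases with *Ndufaf3* on the other strand.

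*Gmps* (chromosome 3, 63976106 to 64022579, plus strand), which encodes the enzyme that completes GMP, was measured at 104.4, 116.3 and 103.9 CPM in Scr and at 149.7, 133.8 and 160.0 CPM in Yme1l siRNA libraries. All Yme1l siRNA libraries were higher than all Scr libraries. *Gmps* rose by 0.45 (SE 0.09, 95% interval 0.25 to 0.65, edgeR adjusted p = 0.00238), the least among the 9 genes that rose. Its copies *Gm20656* and *Gm20657* had at most 13 counts.

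**Figure D3:**
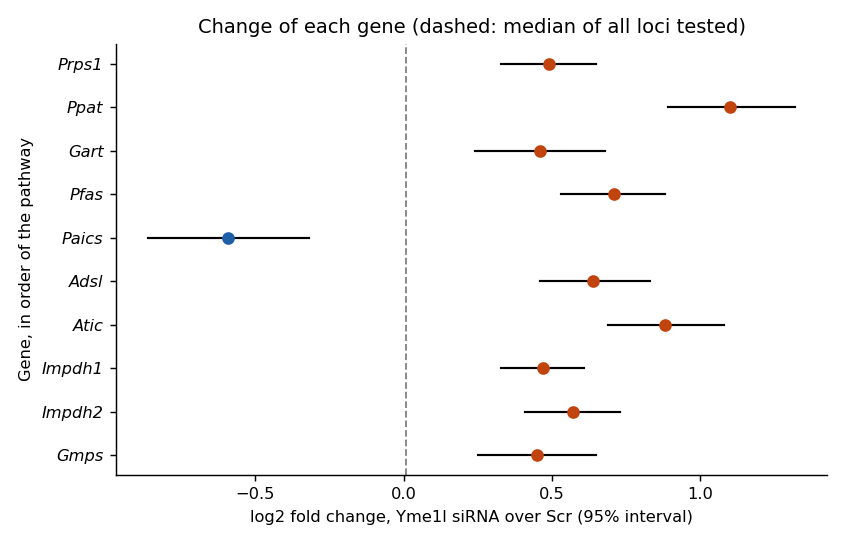
Log2 fold change of each purine synthesis gene, Yme1l siRNA over Scr, in the order of the first step each enzyme takes in the pathway, with points for the estimate and bars for the 95% interval from edgeR, and a dashed line at the median of all loci tested (0.01). All intervals lie above 0 except that of *Paics*, which runs from -0.86 to -0.32.

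Ordered by log2 fold change, the genes were *Ppat*, *Atic*, *Pfas*, *Adsl*, *Impdh2*, *Prps1*, *Impdh1*, *Gart*, *Gmps* and *Paics*. The 95% interval of each gene overlapped that of the next, with the exception of *Gmps* and *Paics*, so the order of neighbours among the 9 genes that rose is not resolved. The size of the change did not follow the order of the steps, since *Ppat* and *Atic*, at the start and the end of the route to IMP, were above *Gart* between them. All 10 genes kept their direction and their call under each of 15 other fits, in which the highest adjusted p was 0.0199, for *Gart* without Scr replicate 1.

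Levels of different genes were compared as CPM per kilobase of exon. The length joined all annotated exons of a gene, such as 7985 bases for *Atic* and 3077 bases for *Impdh2*. It can exceed the length of the transcripts present, so the order of the genes depends on the annotation. In Scr libraries, *Paics* was the most abundant at 68.2 ± 2.88, followed by *Impdh2* at 29.5 ± 1.19 and *Adsl* at 22.5 ± 0.680 CPM per kilobase (SD, n = 3 each). *Gart*, *Impdh1* and *Prps1* lay between 17.5 and 19.7, *Gmps* and *Atic* at 13.4 and 12.9, *Ppat* at 8.77 and *Pfas* at 6.24 CPM per kilobase. Neighbours in this order overlapped between libraries only for *Gart* with *Impdh1* and for *Gmps* with *Atic*. In Yme1l siRNA libraries, the level of *Paics* was 45.2 ± 7.62 and overlapped with that of *Impdh2* at 43.8 ± 2.13 CPM per kilobase (SD, n = 3 each). *Ppat*, at 18.8 ± 1.85, was no longer separate from *Gmps* at 18.2 ± 1.63, and *Pfas* was still the lowest at 10.2 ± 0.810 CPM per kilobase. The 10 levels thus spanned a smaller range after knockdown, from 10.2 to 45.2 in place of 6.24 to 68.2 CPM per kilobase.

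Within the groups, the same library was the lowest for most of the genes. The summed level of the 10 genes was 934.5, 958.6 and 895.2 CPM in Scr and 1266, 1136 and 1353 CPM in Yme1l siRNA libraries, and without *Paics* it was 719.1, 736.5 and 691.0 CPM against 1123, 1018 and 1188 CPM. Yme1l siRNA replicate 2 was the lowest of its group for 9 of the 10 genes, all but *Impdh1*. It also had the lowest *Yme1l1* level, 23.4 CPM, against 31.6 and 45.0 CPM in replicates 1 and 3. Within this group, *Yme1l1* and the summed purine level thus ranked alike, whereas between the groups they moved in opposite directions. Scr replicate 3 was the lowest of its group for 9 of the 10 genes, all but *Gart*. With 3 libraries a group, whether these shifts relate to the depth of the knockdown was not tested.

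The enzymes around the route, for PRPP supply and for the conversion of purine nucleotides into each other, were mixed. Of 17 genes, 15 were tested, of which 5 were called higher, 3 lower and 7 were not called. Over all loci tested, 28.4% were called higher and 29.6% lower, so these counts are not read as a result about the list. The median log2 fold change was 0.15, which was 0.05 when Scr replicate 3 was left out and 0.08 when Yme1l siRNA replicate 3 was. *Prpsap1*, which encodes a protein associated with PRPP synthetase, rose by 0.41 (SE 0.08, edgeR adjusted p = 0.00183). *Ampd3*, an AMP deaminase that returns AMP to IMP, rose by 0.40 (SE 0.06, adjusted p = 0.000746), and *Gmpr*, a GMP reductase that returns GMP to IMP, fell by 0.74 (SE 0.11, adjusted p = 0.000447). The adenylate kinase gene *Ak1* fell by 0.45 (SE 0.08, adjusted p = 0.00168). *Adss*, which encodes the enzyme that leads from IMP towards AMP, had a log2 fold change of 0.17 (SE 0.08, 95% interval -0.01 to 0.35) and was not called (edgeR adjusted p = 0.0914). It was called at 0.24 (adjusted p = 0.0178) when Yme1l siRNA replicate 2 was left out and at 0.20 (adjusted p = 0.0413) when loci under a mean of 50 counts were removed. *Gmpr*, *Ampd3* and *Prpsap1* overlap a gene on the other strand.

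Salvage, breakdown and uptake of purines showed no common direction. The list held 19 genes, for which 17 loci were found, with *Pnp* and *Pnp2* joined and a further gene without a locus. Of 17 loci, 6 were called higher, 6 lower and 5 were not called. With 28.4% of all loci tested called higher and 29.6% lower, these counts do not set the list apart. The median log2 fold change was 0.14, or 0.09 without Yme1l siRNA replicate 2. The salvage transferase gene *Hprt* and the adenosine kinase gene *Adk* were among those not called, *Hprt* at -0.10 (95% interval -0.29 to 0.10, edgeR adjusted p = 0.358) and *Adk* at -0.14 (95% interval -0.33 to 0.06, adjusted p = 0.199), and they were named after their values were seen. The nucleoside transporters *Slc29a1* and *Slc29a2* rose by 0.55 (SE 0.11, adjusted p = 0.00250) and 1.04 (SE 0.19, adjusted p = 0.00153), the latter from a low level of 2.32 ± 0.467 to 4.79 ± 0.339 CPM (SD, n = 3 each). *Adal*, an adenosine deaminase-like gene, rose by 0.56 (SE 0.10, adjusted p = 0.00131). *Lacc1*, which encodes an enzyme with nucleoside-cleaving activity, fell by 0.91 (SE 0.09, adjusted p = 5.51e-05). *Slc29a1*, *Adal* and *Lacc1* overlap a gene on the other strand.

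Of the genes that supply formate and 10-formyltetrahydrofolate, the carbon donor of GART and ATIC, 12 were tested. Among them, 7 were called higher, 4 lower and 1 was not called (median log2 fold change 0.58). Over all loci tested, 58.0% were called, 28.4% higher and 29.6% lower. Of the 13 genes in this list, *Slc25a32* had 0 counts in every library and was not tested. Whether its transcript was absent or its reads were not assigned to this locus was not examined. *Shmt1*, a cytosolic serine hydroxymethyltransferase, was measured at 21.7, 22.2 and 19.6 CPM in Scr and at 55.9, 52.2 and 55.1 CPM in Yme1l siRNA libraries. The groups were far apart, and *Shmt1* rose by 1.36 (SE 0.07, edgeR adjusted p = 7.24e-06). *Slc19a1*, the reduced folate carrier, rose by 0.69 (SE 0.08, edgeR adjusted p = 0.000137).

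*Aldh1l1*, which encodes the cytosolic enzyme that consumes 10-formyltetrahydrofolate, fell from 22.0, 24.1 and 25.2 CPM in Scr to 8.75, 10.4 and 7.14 CPM in Yme1l siRNA libraries. Its groups did not overlap, and its log2 fold change was -1.44 (SE 0.14, edgeR adjusted p = 5.96e-05). Also called lower in this list were *Mthfd1l*, *Mthfd2l* and the locus that joins *Mthfs* with *Bcl2a1b* and *Gm29094*, whose 53 to 99 counts cannot be given to *Mthfs* alone, and among those called higher were *Mthfd1*, *Mthfd2* and *Shmt2*. *Mthfd1l* encodes the enzyme that releases formate inside mitochondria, and its log2 fold change was -0.62 (SE 0.16, edgeR adjusted p = 0.00964). *Mthfd1*, *Mthfd1l*, *Mthfd2*, *Mthfd2l*, *Mthfs* and *Shmt2* were named after their values were seen. *Shmt1*, *Aldh1l1*, *Mthfd1* and *Shmt2* overlap a gene on the other strand.

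In the parallel route to pyrimidines, 4 of 6 genes were called higher and 2 lower, with a median of 0.52. Over all loci tested, the shares were 28.4% higher and 29.6% lower. *Ctps*, a CTP synthase, was measured at 99.4, 95.4 and 102.4 CPM in Scr and at 177.6, 163.2 and 170.5 CPM in Yme1l siRNA libraries, and its isozyme *Ctps2* at 55.0, 53.1 and 48.6 CPM against 38.6, 37.2 and 36.7 CPM. The isozymes thus went in opposite directions without overlap of the groups, with log2 fold changes of 0.78 (SE 0.07, edgeR adjusted p = 4.04e-05) and -0.48 (SE 0.07, adjusted p = 0.000508). *Umps*, the enzyme that makes UMP, rose by 0.50 (SE 0.09, adjusted p = 0.00134), and the kinase gene *Cmpk1* fell by 0.39 (SE 0.07, adjusted p = 0.00143). *Umps* overlaps an antisense gene.

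Transcription factors that are known to act on purine synthesis genes were also read. *Myc* was measured at 103.1, 101.8 and 121.9 CPM in Scr and at 224.5, 231.3 and 207.6 CPM in Yme1l siRNA libraries. All Yme1l siRNA libraries were higher, and the log2 fold change was 1.02 (SE 0.09, edgeR adjusted p = 4.26e-05). The related *Mycl* rose by 2.55 (SE 0.26, adjusted p = 8.26e-05) at a low level, from 0.382 ± 0.0674 to 2.27 ± 0.455 CPM (SD, n = 3 each), and *Mycn* had 0 counts. *Atf4*, a factor of the amino acid response, rose by 0.41 (SE 0.09, adjusted p = 0.00326), and *Nrf1* by 0.36 (SE 0.08, adjusted p = 0.00330). *Max*, the partner of MYC, was called at -0.17 (SE 0.06, adjusted p = 0.0466), a call that was lost in 11 of the other fits, the fit with the replicate number as a block among them. It was named after its values were seen. The part of these factors in the change of the purine genes was not tested.

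Between the groups, most proliferation genes changed in the same direction as 9 of the 10 purine synthesis genes. Within Scr, the libraries did not rank alike. Replicate 3, the lowest for 9 of the 10 purine synthesis genes, was the highest for most of the proliferation genes. Among these was *Mki67* (159.7, 186.7 and 237.0 CPM). It was the lowest only for *Pcna* (184.1, 192.5 and 182.2 CPM), *Mcm6* and *Ccne1*. *Mki67*, *Pcna* and *Mcm6* were named after their values were seen. Of 20 genes of S phase and mitosis, 19 were called higher, against 28.4% of all loci tested, and the median log2 fold change was 0.70. *Aurkb*, a mitotic kinase gene named after its values were seen, had a log2 fold change of 0.20 (SE 0.12) and was not called (edgeR adjusted p = 0.183). With the replicate number as a block it was called (0.20, adjusted p = 0.0420), and also without Scr replicate 3 (0.31, adjusted p = 0.0415). Their summed level was 2464 to 2818 CPM in Scr and 4001 to 4369 CPM in Yme1l siRNA libraries. *Ccne2* and *Ccne1*, cyclins of the entry into S phase, rose by 1.73 (SE 0.10, edgeR adjusted p = 7.67e-06) and 1.3 (SE 0.08, adjusted p = 8.68e-06). *Cdc6* and *Mcm3*, which license replication origins, rose by 1.31 (SE 0.09, adjusted p = 1.48e-05) and 0.88 (SE 0.07, adjusted p = 2.20e-05). *Ccne2* overlaps a gene on the other strand. The part of the number of cycling cells in the purine gene levels was not tested.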

How the data were processed

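RNA of 6 cultures (3 Scr, 3 Yme1l siRNA) was poly(A) selected and sequenced as stranded libraries. Per the submitters' processing notes, HISAT2 2.0.4, StringTie 1.3.3 and Cuffdiff 2.2.1 were used with GRCm38. The counts deposited by the authors are raw reads per locus, without normalization, and the counting program and its use of strand are not given in the sources used here. A further table the authors deposited holds their own group FPKM values, fold changes and p-values and was not used.

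From the counts, edgeR 4.0.16 (R 4.3.3) gave TMM factors, a filterByExpr selection (minimum count 10, total 15) and a quasi-likelihood test without covariates, with Benjamini-Hochberg adjustment over all loci tested and a threshold of 0.05. CPM are counts relative to the scaled library size. The standard error is the log2 fold change divided by the square root of F, and errors are SD unless named. The biological coefficient of variation was 0.131. No library was a second count of another, since pairs within groups differed beyond counting error. The chi-square per degree of freedom was lowest, 10.36, for Scr replicates 1 and 2. It was 75.52 and 59.76 for Scr replicate 3 with replicates 1 and 2, and 28.3 to 72.16 among Yme1l siRNA libraries. Whether cultures were fully independent is known only from the labels and methods. Permutation tests were exact and two-sided.

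The members and gene lists were chosen with earlier results of these data known. Named genes were all members, *Yme1l1*, the isozymes, tested head-to-head neighbours within 1000 bases, and the 4 genes with the smallest adjusted p of each list, of which 1 gene is not reported here, and further genes are said to have been added after their values were seen. Positions and exon lengths came from GENCODE (GRCm38), start regions from RefSeq, and copies of at least 90% identity over at least 200 bases from BLAST 2.17.0. The scripts were tested on simulated data. For libraries with the same replicate number, deviations from the group mean in log2(CPM + 1) had correlations of 0.11, 0.19 and 0.28 for replicates 1, 2 and 3. Libraries with different numbers were not compared in this way, so a pairing is not shown. The number was also fitted as a block. Alternatives were DESeq2 1.42.0, limma-voom 3.58.1, other scale factors, other count filters, the replicate block and leaving out each library. Removal of mtDNA genes and summing of members with their copies were added after the data were seen.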

Additional observations from a re-analysis of the deposited data

How the results depend on the processing

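All 10 purine synthesis genes kept direction and call under the 15 other fits run, and with the replicate block 9 of them were higher and 1 lower. Over the members and the pathway and comparison lists, the block ended the call of *Max* and added calls of *Aurkb* (adjusted p = 0.0420) and of the joined locus of *Pnp* and *Pnp2* (0.17, adjusted p = 0.0499), and it changed no other call. The number of transcription factors called lower, 1 in the reported fit, was 0 under DESeq2, RLE factors, upper-quartile factors, all loci with at least 1 count, a minimum mean of 50 counts and the replicate block, and 0 to 1 when single libraries were left out, since the call of *Max* lies near the threshold. Leaving out single libraries moved some list medians. The lowest and highest values were 0.05 and 0.15 for PRPP supply and interconversion, 0.09 and 0.19 for salvage, 0.42 and 0.61 for pyrimidine synthesis, 0.35 and 0.49 for the transcription factors and 0.63 and 0.82 for proliferation, and for the purine synthesis genes 0.50 and 0.58. Among the named genes, *Prps2*, *Adss* and *Aurkb* gained a call and *Son* and *Max* lost one under some settings, as described with their values. The cause was not tested. With 3 cultures a group from 1 line and 1 time point, the tests speak to counting error and to how far these cultures spread, and no permutation test could give a p under 0.1.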
